A study of Homo sapiens with 16 samples.

Results

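The p53 pathway genes described here are 31 protein-coding genes, most of which p53 is known to switch on, taken from a count table of 60676 rows named by Ensembl identifiers. A row belongs to the set when its symbol is in a list of p53 targets and regulators, and all 31 symbols were found. By role, the set holds 5 regulators of p53, 8 genes of growth arrest and stress, 5 of DNA repair and nucleotide supply, 6 of death receptors and cell death, and 7 of mitochondria, redox, metabolism and autophagy. The cells were HCT116, a human colorectal carcinoma line. Their poly(A) RNA was sequenced in 16 libraries, and each of the 8 groups has a library numbered 1 and another numbered 2. Cells carrying an shRNA against NELFE (shNELFE) or a control shRNA (shCTL) received EPZ-5676 and HMBA together, HMBA, EPZ-5676 or DMSO. NELFE belongs to negative elongation factor, a complex that stalls RNA polymerase II shortly after it starts. EPZ-5676 (pinometostat) blocks DOT1L, an enzyme that methylates histones on the bodies of active genes. HMBA is hexamethylene bisacetamide, which frees the elongation kinase P-TEFb from its inhibitor and induces HEXIM1.

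The labels used here give no dose, no treatment time, no shRNA sequence and no word on whether replicates were separate cultures. P-values therefore measure only the spread of these libraries about the fit described below, which may be technical. The rule that chose the genes also named the libraries in which to read them, which are the 8 numbered 2 and shNELFE with both compounds number 1. The other 7 libraries numbered 1 stand apart, also in markers of cell type, and are described near the end. Each library entered 1 additive fit with terms for HMBA, EPZ-5676 and shRNA, so that each effect compares 5 libraries with 4. One arm of each effect thus holds the shNELFE group with both compounds 2 times. Every other group has 1 library in the fit. The spread behind the p-values therefore includes departures from additive effects and is not replicate spread alone. Leaving out either library of the shNELFE group with both compounds leaves 1 library per group and no replicates. Replicate spread and departures from additive effects cannot be told apart in such a fit. A gene was called when edgeR's quasi-likelihood test gave an adjusted p under 0.05 over all 14912 genes tested. Levels are read counts relative to the library total (CPM), scaled by TMM over the 9 libraries.

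The transcription factor p53 is kept low in resting cells by MDM2, which marks it for degradation, and by MDM4, which covers its activation domain. When DNA damage or other stress frees p53, it binds paired copies of a 10-base sequence near its targets and raises genes that halt the cell cycle, repair DNA, kill the cell or adjust metabolism. Among these targets is MDM2 itself, which closes a feedback loop.

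Total counts in the 9 libraries ran from 13428893 to 17867037, where 3 counts correspond to 0.168 to 0.223 CPM. NELFE averaged 17.1 ± 3.32 CPM in 5 shNELFE libraries and 74.3 ± 5.70 CPM in 4 shCTL libraries (SD), with no overlap. HEXIM1 averaged 369 ± 18.4 CPM in the 5 libraries with HMBA and 73.4 ± 7.40 CPM in the 4 without (SD). The epithelial markers, 9 genes, summed to 4479 to 7821 CPM, with EPCAM at 292 to 603 CPM and VIL1 at 0 to 0.202 CPM. The immune markers, 5 genes, summed to at most 1.09 CPM, and CD3E was at 0 in all 9 libraries. The 8 mesenchymal markers summed to 153 to 219 CPM in the libraries with HMBA and 87.3 to 137 CPM in those without. The epithelial sum was 4698 to 7821 CPM with HMBA and 4479 to 5860 CPM without, so these ranges overlap. Single markers were mixed. The epithelial marker CDH1 was higher with HMBA (164 to 207 CPM, against 77.8 to 101 CPM without). CDX2, also on the epithelial list, was lower with HMBA, at 3.26 to 4.85 CPM, with no overlap. The ranges of the mesenchymal marker VIM overlap. The share of counts from mitochondrial genes was 8.87% to 12.2% with HMBA and 6.12% to 6.90% without. The part of these differences in the HMBA results was not tested. In these bulk samples, a change in which cells were present and a change of RNA per cell cannot be told apart.

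The p53 decamer, the 10-base unit of the p53 response element, was searched in the 250 bases before the transcription starts of RefSeq (GRCh38.p14). Starts were found for 24 of the 31 genes, in 36 windows, of 35116 windows in all. The decamer occurred in 6 of the 36 windows, or 16.7%, and in 5.57% of all windows. The 6 stretches below are shown because they carry this sequence in genes that HMBA moved in both directions. Each has 30 bases, 5′ to 3′ on the strand of the gene, with the decamer in capitals. A match describes the letters and does not show binding.

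SESN1: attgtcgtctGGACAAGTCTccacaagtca
RPS27L: ggcctagagcAGACAAGCCCgccccgccgc
FDXR: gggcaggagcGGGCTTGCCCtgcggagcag
PLK2: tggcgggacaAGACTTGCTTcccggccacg
FAS: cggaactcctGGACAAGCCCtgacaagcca
AEN: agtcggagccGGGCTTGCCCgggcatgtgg

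SESN1, RPS27L and FDXR were higher with HMBA, and PLK2, FAS and AEN were lower with HMBA, in the tests given below. The stretches lie at chr6:109009018-109009047 (minus strand) for SESN1, chr15:63157517-63157546 (minus) for RPS27L and chr17:74872986-74873015 (minus) for FDXR. Those of the 3 lower genes lie at chr5:58460199-58460228 (minus) for PLK2, chr10:88991299-88991328 (plus) for FAS and chr15:88621296-88621325 (plus) for AEN. SESN1, FAS and FDXR each have several starts in the table, and 1 window of each holds the decamer. Other letters searched on both strands were GGGCGG, the core of a GC box, in 80.6% of the 36 windows and 42.6% of all. CCAAT was in 47.2% of the 36 and 32.0% of all. TGANTCA, an AP-1 sequence, was in 11.1% and 6.57%, TATAAA in 2.78% and 10.7%, and CACGTG, an E-box, in 2.78% and 6.34%.

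BTG2, the gene of the set with a fitted rise of at least 2-fold for both HMBA and shNELFE, has no exact match to the decamer in its 250 bases. Bases outside this stretch were not searched. These bases, chr1:203305269-203305518 (plus strand, GRCh38.p14), are shown with GGGCGG or its complement CCGCCC, 3 in all, and 1 CCAAT in capitals.

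BTG2: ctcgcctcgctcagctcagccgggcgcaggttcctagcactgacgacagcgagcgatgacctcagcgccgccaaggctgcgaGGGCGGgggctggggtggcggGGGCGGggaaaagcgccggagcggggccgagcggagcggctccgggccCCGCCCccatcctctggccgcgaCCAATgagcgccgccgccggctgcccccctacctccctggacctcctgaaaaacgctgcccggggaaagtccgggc

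HMBA moved most of the set, and in both directions. Of the 29 genes with enough counts to test, 23 were called, beside 63.0% of all genes tested. Of these, 15 were higher with HMBA (31% of all genes were called higher) and 8 were lower (32.0% called lower). At least 2-fold rises were called for 6 genes, GADD45A, BTG2, PLK3, SUSD6, POLH and TP53INP1 (11.4% of all genes), and at least 2-fold falls for 2, MDM4 and AEN (13.6% of all genes). Without shNELFE with both compounds number 1, 4 genes fell by at least 2-fold, these and TRIAP1 (log2 fold change -1.04, SE 0.08) and PHLDA3 (-1.12, SE 0.12). The median log2 fold change of the 29 genes was 0.42, and that of all genes tested was 0.023. By the roles given here, which were assigned with earlier results of these data known, the genes of growth arrest and of DNA repair were mostly higher. In the cell death group no gene was called higher and 4 were called lower, among them TRIAP1, which is known to counter cell death.

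**Figure D1:**
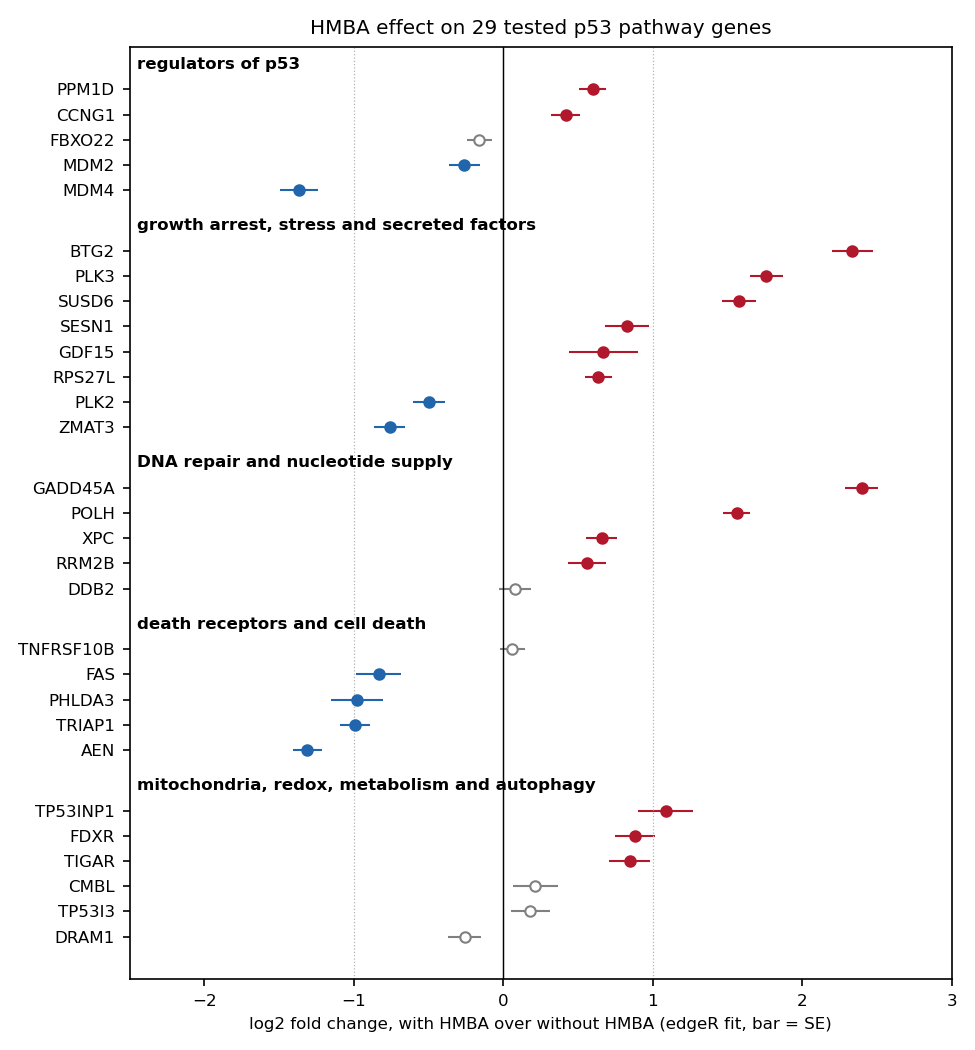
The log2 fold change with HMBA over without it (horizontal axis) is drawn for each of the 29 tested genes in rows, grouped by role, with bars of 1 SE (red called higher, blue called lower, open not called); the genes range from GADD45A at 2.40 to MDM4 at -1.37. All 4 called genes of the cell death group lie left of 0, and all called genes of the DNA repair group lie right of it.

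GADD45A, a stress protein that binds PCNA and takes part in DNA repair and arrest, had the largest rise of the set. With HMBA it had 107.9 and 96.7 CPM in the shNELFE libraries with both compounds, 100.8 in shNELFE with HMBA, 98.7 in shCTL with both and 76.8 in shCTL with HMBA. Without HMBA it had 19.1 CPM in shNELFE with EPZ-5676, 20.6 in shNELFE with DMSO, 14.7 in shCTL with EPZ-5676 and 17.2 in shCTL with DMSO. Every library with HMBA was above every library without it, and the spread within each arm was small beside the gap. The fitted log2 fold change was 2.40 (SE 0.11, edgeR adjusted p = 3.66e-08), a 5.27-fold rise, in 4 of 4 pairs of libraries that differ in HMBA alone. GADD45A lies on chromosome 1, 67685061 to 67688338 in GENCODE 29 (hg38).

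BTG2 encodes an antiproliferative protein that recruits the CCR4-NOT deadenylase to mRNAs, and lies on chromosome 1, 203305491 to 203309602. With HMBA it had 70.8 and 56.0 CPM in the shNELFE libraries with both compounds, 51.6 in shNELFE with HMBA, 25.9 in shCTL with both and 26.8 in shCTL with HMBA. Without HMBA it had 9.78 CPM in shNELFE with EPZ-5676, 10.9 in shNELFE with DMSO, 6.29 in shCTL with EPZ-5676 and 5.91 in shCTL with DMSO. The arms do not overlap, and within each arm the shNELFE libraries are above the shCTL ones. The log2 fold change for HMBA was 2.33 (SE 0.14, edgeR adjusted p = 1.69e-07).

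Of the other growth arrest and stress genes, PLK3, a polo-like kinase of the stress response on chromosome 1, averaged 71.3 ± 5.10 CPM with HMBA and 21.3 ± 2.99 CPM without (SD, n = 5 and 4). It had 77.9 and 65.6 CPM in the shNELFE libraries with both compounds, 68.7 in shNELFE with HMBA, 75.1 in shCTL with both and 69.0 in shCTL with HMBA. In the absence of HMBA PLK3 had 19.1 CPM in shNELFE with EPZ-5676, 19.9 in shNELFE with DMSO, 20.7 in shCTL with EPZ-5676 and 25.7 in shCTL with DMSO. The 5 HMBA libraries of PLK3 lie close together, whichever the shRNA, and above all others (log2 fold change 1.76, SE 0.11, edgeR adjusted p = 2.39e-07). SUSD6, a transmembrane protein with a sushi domain, had 27.4 and 27.8 CPM in the shNELFE libraries with both compounds, 26.6 in shNELFE with HMBA, 44.8 in shCTL with both and 43.9 in shCTL with HMBA. The libraries without HMBA had 11.5 CPM in shNELFE with EPZ-5676, 9.08 in shNELFE with DMSO, 13.8 in shCTL with EPZ-5676 and 11.8 in shCTL with DMSO. The HMBA libraries are again all above the others, but here the shNELFE libraries are below the shCTL ones (log2 fold change for HMBA 1.58, SE 0.11, edgeR adjusted p = 6.91e-07).

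Smaller rises were called for SESN1, a sestrin that restrains mTORC1 under stress (log2 fold change 0.83, SE 0.15), for GDF15, a secreted stress cytokine (0.67, SE 0.23), and for RPS27L, a paralog of a ribosomal protein (0.64, SE 0.09). GDF15 was the least even of them. It had 32.1 and 69.8 CPM in the shNELFE libraries with both compounds, 44.3 in shNELFE with HMBA, 38.0 in shCTL with both and 32.3 in shCTL with HMBA, against 22.4 to 33.0 CPM in the 4 libraries without HMBA. The arms overlap, and the call of GDF15 (edgeR adjusted p = 0.0264) was lost on leaving out 4 of the 9 libraries, each in turn. PLK2, a polo-like kinase, and ZMAT3, an RNA-binding protein that acts in splicing, went the other way. PLK2 averaged 139 ± 44.5 CPM with HMBA and 178.0 CPM without, where its 4 libraries ran from 144 to 214.9 CPM, and the arms overlap (SD, n = 5; log2 fold change -0.50, SE 0.11, edgeR adjusted p = 0.00187). It was lower with HMBA in all 4 pairs. ZMAT3 averaged 18.2 ± 2.14 CPM with HMBA and 31 ± 2.29 CPM without, with no overlap (log2 fold change -0.76, SE 0.10, edgeR adjusted p = 8.48e-05).

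**Figure D2:**
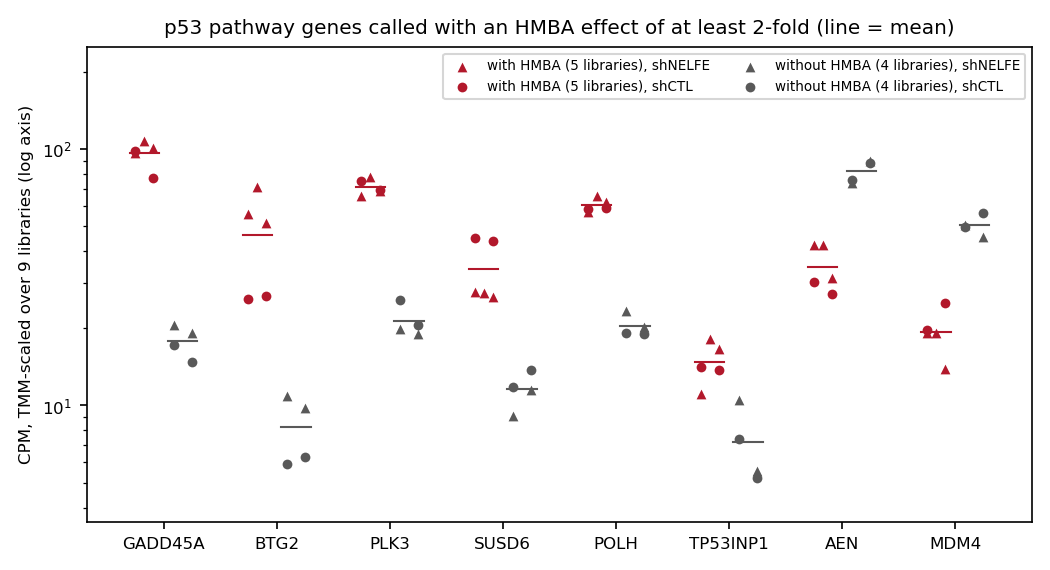
CPM on a log axis is drawn for the 8 genes with a called HMBA effect of at least 2-fold, with 1 point per library, triangles for shNELFE and circles for shCTL, the 5 libraries with HMBA left of the 4 without it and a line at each mean. GADD45A has 76.8 to 107.9 CPM with HMBA and 14.7 to 20.6 CPM without, and AEN and MDM4 lie the other way round.

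In DNA repair and nucleotide supply, 4 of 5 genes rose, beside 31% of all genes called higher. POLH, the translesion polymerase eta on chromosome 6, had 65.6 and 57.0 CPM in the shNELFE libraries with both compounds, 62.0 in shNELFE with HMBA, 58.2 in shCTL with both and 59.1 in shCTL with HMBA. Without HMBA it had 20.2 CPM in shNELFE with EPZ-5676, 23.3 in shNELFE with DMSO, 18.9 in shCTL with EPZ-5676 and 19.2 in shCTL with DMSO. The arms are far apart in POLH (log2 fold change 1.56, SE 0.09, edgeR adjusted p = 1.66e-07). XPC, which recognises lesions in nucleotide excision repair, was higher with a log2 fold change of 0.66 (SE 0.10). RRM2B, the p53-inducible small subunit of ribonucleotide reductase, was higher with 0.56 (SE 0.13), with 52.4 to 89.4 CPM with HMBA and 44.2 to 67.4 CPM without, so that its arms overlap. DDB2, which binds ultraviolet lesions, averaged 34.0 ± 4.50 CPM with HMBA and 32.4 ± 0.345 CPM without (SD) and was not called (log2 fold change 0.08, SE 0.11).

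The genes placed in the cell death group went down or were not called. Each gene was given 1 role, with earlier results known, so that genes of the other groups may also act in cell death. AEN, an exonuclease named for enhancing apoptosis, had 42.2 and 42.4 CPM in the shNELFE libraries with both compounds, 31.4 in shNELFE with HMBA, 30.2 in shCTL with both and 27.1 in shCTL with HMBA. In the absence of HMBA it had 89.9 CPM in shNELFE with EPZ-5676, 74.0 in shNELFE with DMSO, 88.4 in shCTL with EPZ-5676 and 76.0 in shCTL with DMSO. Every library with HMBA was below every library without it (log2 fold change -1.31, SE 0.10, edgeR adjusted p = 1.01e-06). TRIAP1, an inhibitor of apoptosis at the mitochondrion, averaged 24 ± 4.06 CPM with HMBA and 46.2 ± 5.49 CPM without (SD, n = 5 and 4; log2 fold change -0.99, SE 0.10). PHLDA3, which restrains AKT by binding its lipids, averaged 6.79 ± 1.62 CPM with HMBA and 13.3 ± 1.71 CPM without (SD; -0.98, SE 0.17). Neither of these has overlapping arms, and TRIAP1 is the gene in this group that is known to counter cell death. The death receptor FAS averaged 5.83 ± 1.52 CPM with HMBA and 10.1 ± 1.25 CPM without (SD; log2 fold change -0.83, SE 0.15, edgeR adjusted p = 0.000684). The TRAIL receptor TNFRSF10B, also called DR5, had 98 to 124.9 CPM with HMBA and 91.3 to 131.3 CPM without and was not called (log2 fold change 0.06, SE 0.08). The ectodysplasin receptor EDA2R had too few counts to test, with 0 to 0.134 CPM in the 9 libraries.

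Among genes of mitochondria, redox, metabolism and autophagy, 3 of the 6 tested were higher and none was called lower by edgeR. Of all genes tested, 31% were called higher and 32.0% lower. At an unadjusted p under 0.05 there were 4 of the 6, beside 9944 of all 14912 genes. TP53INP1, which acts in autophagy and in the phosphorylation of p53, had 18.1 and 11.1 CPM in the shNELFE libraries with both compounds, 16.6 in shNELFE with HMBA, 14.1 in shCTL with both and 13.8 in shCTL with HMBA. The libraries without HMBA had 5.57 CPM in shNELFE with EPZ-5676, 10.5 in shNELFE with DMSO, 5.22 in shCTL with EPZ-5676 and 7.39 in shCTL with DMSO. The arms do not overlap, although the lowest library with HMBA is close to the highest without it (log2 fold change 1.09, SE 0.18, edgeR adjusted p = 0.000395). FDXR, the ferredoxin reductase of mitochondria, averaged 62.4 ± 14.4 CPM with HMBA and 32.6 ± 0.787 CPM without (SD; log2 fold change 0.88, SE 0.13). TIGAR, which lowers glycolysis by removing fructose bisphosphate, averaged 48.3 ± 7.52 CPM with HMBA and 27.0 ± 3.14 CPM without (SD; log2 fold change 0.85, SE 0.14). The quinone oxidoreductase TP53I3 (0.18, SE 0.13), the hydrolase CMBL (0.22, SE 0.15) and the lysosomal autophagy protein DRAM1 (-0.26, SE 0.11) were not called. SPATA18, a protein of mitochondrial quality control, had too few counts to test, with 0 to 0.482 CPM.

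The regulators of p53 were divided. MDM4 had 19.2 and 19.1 CPM in the shNELFE libraries with both compounds, 13.8 in shNELFE with HMBA, 19.7 in shCTL with both and 25.1 in shCTL with HMBA. Without HMBA it had 45.4 CPM in shNELFE with EPZ-5676, 50.5 in shNELFE with DMSO, 56.4 in shCTL with EPZ-5676 and 49.5 in shCTL with DMSO. This was the largest fall of the set, with no overlap (log2 fold change -1.37, SE 0.13, edgeR adjusted p = 5.07e-06). MDM2 had 143.2 and 112.9 CPM in the shNELFE libraries with both compounds, 120.8 in shNELFE with HMBA, 104.4 in shCTL with both and 95.1 in shCTL with HMBA. In the absence of HMBA it had 130.9 CPM in shNELFE with EPZ-5676, 137.8 in shNELFE with DMSO, 137.4 in shCTL with EPZ-5676 and 133.5 in shCTL with DMSO. The 4 values without HMBA are close together, and the highest of all 9 is a library with HMBA. The small fall of MDM2 (log2 fold change -0.26, SE 0.10, edgeR adjusted p = 0.0459) was no longer called on leaving out 6 of the 9 libraries, each in turn, nor with RLE scaling (adjusted p = 0.0653) or DESeq2 (adjusted p = 0.0618). These 6 were shNELFE with HMBA or DMSO and all 4 shCTL libraries, and without them the log2 fold change of MDM2 ran from -0.28 to -0.18. PPM1D, the WIP1 phosphatase that counters p53 and its kinases, rose (0.60, SE 0.09), as did CCNG1, cyclin G1, which acts on MDM2 through a phosphatase (0.42, SE 0.10). FBXO22, a ubiquitin ligase receptor, was not called (-0.16, SE 0.08).

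These calls depended little on single libraries. Of the 23 called genes, 21 passed without each of the 9 libraries in turn, and MDM2 and GDF15 are the exceptions. GDF15 lost its call without shNELFE with HMBA, EPZ-5676 or DMSO, or without shCTL with EPZ-5676 (log2 fold change 0.54 to 0.70). Without shNELFE with both compounds number 1, 25 genes were called, beside 70.5% of 14808 genes, with FBXO22 and DRAM1 added as lower. With unscaled library totals, the median log2 fold change of all genes shifted by -0.26. Then 12 genes of the set were called higher and 10 lower, and 30.2% of all called genes were higher, against 49.3% with TMM. CCNG1 (0.15), RRM2B (0.30) and GDF15 (0.39) were no longer called there, and FBXO22 (-0.43) and DRAM1 (-0.53) were added as lower.

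The best known targets outside the set were read in the same fit. CDKN1A, which encodes the arrest protein p21, rose with HMBA (log2 fold change 2.72, SE 0.11), with 888 ± 316 CPM with HMBA and 125 ± 35.0 CPM without (SD, n = 5 and 4). The apoptosis genes BAX (-0.10, SE 0.13) and BBC3, which encodes PUMA (0.38, SE 0.18), were not called. Neither outcome held under every setting. BBC3 was called higher on leaving out shCTL with DMSO (0.47, SE 0.18) or shCTL with HMBA (0.54, SE 0.18). BAX was called lower with unscaled totals (-0.37, SE 0.11). Of 75 tested p53 targets outside the set, 40 were called higher with HMBA and 17 lower, with a median log2 fold change of 0.38, beside 31% of all genes called higher and 32.0% lower. The largest rises among them were SERTAD1 (3.15), a cofactor of E2F transcription, and BTG1 (3.13), a relative of BTG2, and the largest fall was that of the cytokine LIF (-4.42). Of 22 regulators of p53 outside the set, 7 were higher and 10 lower, beside the same shares of all genes, from HEXIM1 (2.35) and the corepressor TRIM28 (0.88) to the ubiquitin ligase RCHY1 (-1.43) and the p53 relative TP73 (-1.90). Of 22 cell cycle genes known to be lowered through p21, 3 were higher and 10 lower, again beside 31% and 32.0% of all genes. CDK1 (0.50) and BUB1 (0.39) led the rises, and LMNB1 (-1.59), a nuclear lamin, and the kinase AURKA (-1.58) led the falls. The call of BUB1 was lost with unscaled totals (log2 fold change 0.13, edgeR adjusted p = 0.281).

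The knockdown of NELFE moved 3 of the 29 tested genes, all in the growth arrest group, beside 2.37% of all genes tested. BTG2 and PLK2 were higher in shNELFE (0.764% of all genes were called higher) and SUSD6 was lower (1.6% called lower). The median log2 fold change of the 29 was 0.13, and that of all genes was 0.0060. In pairs of libraries with the same treatment, BTG2 was 2.73-fold higher in shNELFE than in shCTL with both compounds, 1.93-fold with HMBA, 1.56-fold with EPZ-5676 and 1.85-fold with DMSO. All 4 pairs of BTG2 thus show the rise (log2 fold change 1.00, SE 0.13, edgeR adjusted p = 0.00447), which passed without each of the 9 libraries in turn (0.90 to 1.07). The arms of BTG2 overlap, since HMBA moves this gene in both of them.

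PLK2 was 1.57-fold higher in shNELFE than in shCTL with both compounds, 1.82-fold with HMBA, 1.21-fold with EPZ-5676 and 1.22-fold with DMSO (log2 fold change 0.54, SE 0.11, edgeR adjusted p = 0.0281). SUSD6 in shNELFE had 0.612 of the shCTL level with both compounds, 0.606 with HMBA, 0.835 with EPZ-5676 and 0.768 with DMSO (log2 fold change -0.56, SE 0.11, edgeR adjusted p = 0.0274). Both directions held in 4 of 4 pairs. PLK2 and SUSD6 lost their calls on leaving out any 1 of the libraries shNELFE with HMBA, shNELFE with DMSO, or shCTL with both compounds, HMBA or EPZ-5676, when BTG2 was the 1 gene of the set still called. At an unadjusted p under 0.05 there were 8 genes of the set, which adds FBXO22, GADD45A, FAS, TRIAP1 and FDXR, beside 2899 of all 14912 genes. Without shNELFE with both compounds number 1, FBXO22 was also called (log2 fold change 0.22, SE 0.07, edgeR adjusted p = 0.0381), giving 4 genes of the set, beside 13.1% of all genes.

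MDM2 (0.17, SE 0.10) and MDM4 (-0.26, SE 0.13) were not called for shNELFE. CDKN1A was higher in shNELFE in 4 of 4 pairs (0.85, SE 0.11, edgeR adjusted p = 0.00411). BAX (0.0059, SE 0.13), BBC3 (0.38, SE 0.17) and HEXIM1 (-0.11, SE 0.08) were not called. Of the 75 p53 targets outside the set, 4 were called, CDKN1A and FAM210B (0.39) higher and DGKA (-0.85), a diacylglycerol kinase, and ABHD4 (-0.70) lower, beside 2.37% of all genes. FAM210B and ABHD4 each lost the call on leaving out any 1 library other than shNELFE with both compounds number 1, and DGKA lost it without shNELFE with DMSO or HMBA or shCTL with HMBA. FAM210B was also not called by edgeR with unscaled totals (adjusted p = 0.0970) or with no filter on low counts (adjusted p = 0.0848). None of the 22 cell cycle genes was called by edgeR, with 4 at an unadjusted p under 0.05, beside 2899 of all 14912 genes. Without shNELFE with both compounds number 1, 20 of the 75 targets and 3 of the cell cycle genes were called, beside 13.1% of all genes.

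**Figure D3:**
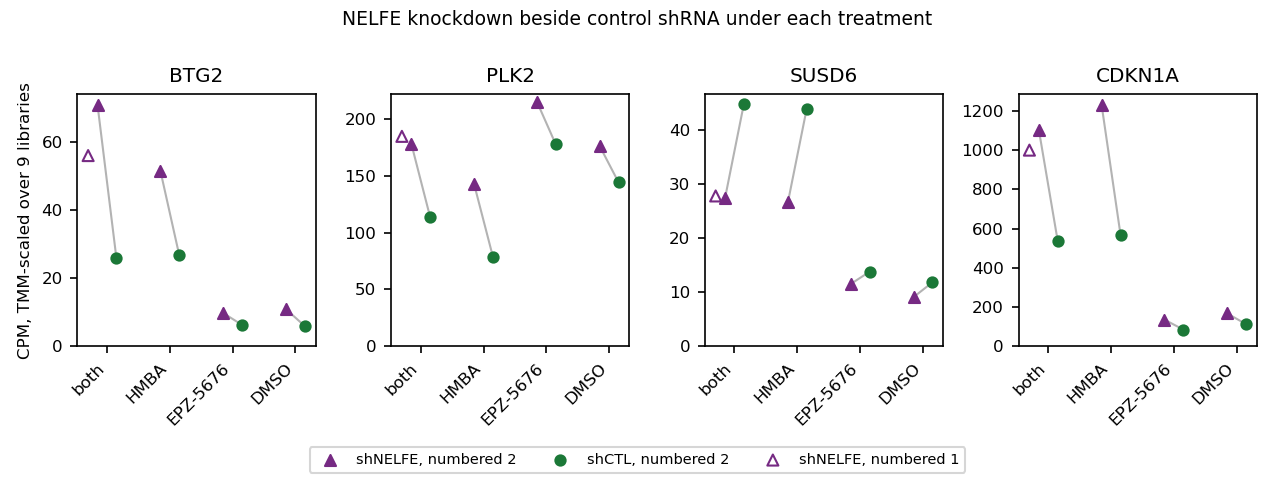
CPM (vertical axis, from 0) is drawn per library for BTG2, PLK2, SUSD6 and CDKN1A under each treatment, with shNELFE triangles left of shCTL circles, lines joining libraries numbered 2 and an open triangle for number 1. At equal treatment BTG2 and PLK2 lie higher in shNELFE and SUSD6 lies lower, with BTG2 at 70.8 CPM in shNELFE and 25.9 CPM in shCTL with both compounds.

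EPZ-5676 gave no called gene in the set by edgeR over the 9 libraries, beside 0.201% of all genes called. At an unadjusted p under 0.05 there were 5, PLK2, AEN, CCNG1, RRM2B and TNFRSF10B, beside 1695 of all 14912 genes. DESeq2 called PLK2 alone (adjusted p = 0.0490), and limma-voom called 0. The outcome depended on 1 library, whose removal leaves 1 library per group and no replicates. The common coefficient of variation fitted by edgeR was 0.135 over the 9 libraries and 0.0811 over the 8 numbered 2. Without shNELFE with both compounds number 1, edgeR called 4 genes of the set, beside 3.8% of all genes, with 1.36% of all genes higher and 2.44% lower. PLK2 was then higher with EPZ-5676 (log2 fold change 0.36, SE 0.09, edgeR adjusted p = 0.0406). CCNG1 (-0.36, SE 0.07, edgeR adjusted p = 0.0113), RRM2B (-0.33, SE 0.08, edgeR adjusted p = 0.0339) and TNFRSF10B (-0.29, SE 0.07, edgeR adjusted p = 0.0330) were lower.

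In the fit of 9 libraries these genes had the same directions. PLK2 averaged 174 ± 37.0 CPM with EPZ-5676 and 135 ± 40.8 CPM without (SD, n = 5 and 4; log2 fold change 0.38, SE 0.11), higher in 4 of 4 pairs. TNFRSF10B averaged 102 ± 7.85 CPM with EPZ-5676 and 123 ± 6.91 CPM without (SD; -0.28, SE 0.08), lower in 4 of 4 pairs, and its arms do not overlap. The ribonucleotide reductase subunit RRM2B (-0.41, SE 0.12) and cyclin G1 (-0.30, SE 0.10) were also lower in all 4 pairs, with overlapping arms. MDM2 (0.06, SE 0.10), MDM4 (0.04, SE 0.13), CDKN1A (-0.24, SE 0.10), BAX (0.02, SE 0.13) and BBC3 (0.17, SE 0.18) were not called. Of the 75 targets outside the set, THBS1, which encodes the matrix protein thrombospondin 1, was the 1 gene called (0.94, SE 0.15, edgeR adjusted p = 0.0408), with 376 ± 92.7 CPM with EPZ-5676 and 187 ± 57.0 CPM without (SD, n = 5 and 4), beside 0.201% of all genes. THBS1 lost its call with unscaled totals (adjusted p = 0.0624) and on leaving out any 1 of 7 libraries (log2 fold change 0.78 to 1.10), which were all but shCTL with both compounds and shNELFE with both compounds number 1. None of the 22 regulators and none of the 22 cell cycle genes outside the set was called by edgeR. These lists had 2 and 1 genes at an unadjusted p under 0.05, beside 1695 of all 14912 genes.

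**Figure D4:**
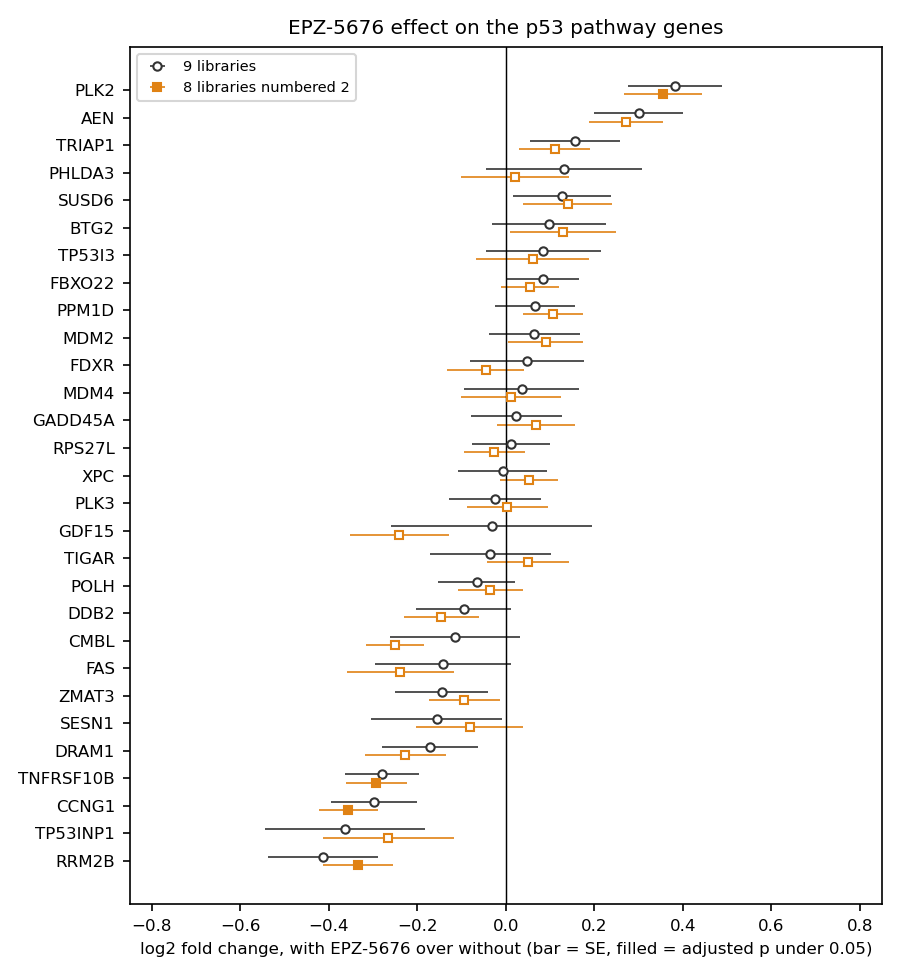
The log2 fold change with EPZ-5676 over without it (horizontal axis, bars of 1 SE) is drawn for the 29 tested genes in rows, as circles for 9 libraries and squares for the 8 numbered 2, filled where the adjusted p is under 0.05. All circles are open, and the filled squares are PLK2 at 0.36 and, left of 0, TNFRSF10B at -0.29, RRM2B at -0.33 and CCNG1 at -0.36.

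Whether the effects depended on one another was tested with product terms. For the change of the HMBA effect by shNELFE, 0 genes of the set were called by edgeR, DESeq2 and limma-voom, beside 0.0134% of all genes by edgeR. Beside 623 of all 14912 genes, 2 of the set had an unadjusted p under 0.05 by edgeR. These were PLK2, with a change in log2 fold of 0.48 (SE 0.16, edgeR adjusted p = 0.879), and AEN, with 0.38 (SE 0.17, edgeR adjusted p = 0.879). BTG2 had a change of 0.39 (SE 0.25) and SUSD6 one of -0.41 (SE 0.19), so that the larger CPM differences of these genes between shNELFE and shCTL with HMBA were not resolved from an equal fold in both. For the change of the HMBA effect by EPZ-5676 and of the EPZ-5676 effect by shNELFE, the same 3 tools called 0 genes of the set, beside 0.0% of all genes called by edgeR in each. At an unadjusted p under 0.05 by edgeR the set had 0 in each, beside 385 and 114 of all 14912 genes. Without shNELFE with both compounds number 1, the set again had 0 called genes in all 3 product terms by edgeR. The shares of all genes called were 0.243% for HMBA by shNELFE, 0.0338% for HMBA by EPZ-5676 and 0.0% for EPZ-5676 by shNELFE. At an unadjusted p under 0.05 the set had 5, 3 and 0 in that order, beside 1121, 1654 and 269 of 14808 genes.

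Levels per kilobase of merged exon differed widely among the genes. Over the 9 libraries the highest medians were those of GADD45A (37.1 CPM per kilobase), PLK2 (36.9) and CCNG1 (25.4), and the lowest among tested genes was that of FAS (1.85). The place of GADD45A rests on the libraries with HMBA, where its median was 47.7 CPM per kilobase. Without HMBA its median was 8.78 CPM per kilobase, below those of PLK2 (37.0), TRIAP1 (33.7), CCNG1 (23.1), TNFRSF10B (21.1) and AEN (13.7). The medians of CMBL (13.5), GDF15 (12.3), MDM2 (10.2), RRM2B (9.53) and FDXR (8.99) were also above it. The ranges of GADD45A (7.11 to 52.2 CPM per kilobase), PLK2 (16.5 to 45.1) and CCNG1 (17.5 to 32.6) overlap, so their order is not fixed. EDA2R and SPATA18 had medians of 0. The shNELFE group with both compounds is the 1 group with both of its libraries among the 9, and there the level in number 1 over that in number 2 ran from 0.615 for TP53INP1 to 2.18 for GDF15. Of 29 genes, 5 were over 1.5-fold apart, these and SESN1 (0.656), CMBL (1.61) and PHLDA3 (1.68).

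Some of the genes share exons with neighbours, and the strand setting of the counts is not given in the sources used here. On opposite strands lie POLH and GTPBP2, XPC and LSM3, FAS and ACTA2, TNFRSF10B and RHOBTB2, TP53I3 and FAM228B, and MDM2 and CPM, so that reads of these pairs may not be separated. MDM2 also overlaps the processed pseudogene AC025423.2 on its own strand, and TIGAR shares exons with the readthrough gene AC008012.1. The levels of MDM2 and TIGAR are uncertain to that extent.

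The 7 libraries numbered 1 outside the fit had 19626522 to 21319666 counts and did not keep to the levels of the 9, which bears on how far the set's values hold for the labelled groups. Their cell type markers also differed. The epithelial markers summed to 6934 to 31636 CPM in the 7 and the mesenchymal markers to 19.1 to 8297 CPM. CDH1, an epithelial cadherin, had 0.101 to 1576 CPM in the 7, against 77.8 to 207 CPM in the 9. VIM, a mesenchymal filament, reached 1989 CPM in the 7, against 2.85 to 8.35 CPM in the 9. Whether these libraries hold the labelled cells was not tested. On totals scaled over all 16 libraries, PHLDA3, TP53I3 and DRAM1 were above all of the 9 in each of the 7. PLK3, RRM2B, FAS, TNFRSF10B and TIGAR were below all of the 9 in each of the 7. For SUSD6, POLH and FDXR, none of the 7 lay outside the range of the 9. MDM2 had 22.5 to 104.0 CPM in the 7 and 94.7 to 141 CPM in the 9. The phosphatase gene PPM1D had 162 to 262 CPM in 5 of the 7, against 28.1 CPM in shCTL with both compounds and 35.8 in shCTL with DMSO. CMBL was at 0 in those same 2 libraries and at 32.6 to 67.0 CPM in the other 5. These libraries are not treated as replicates of their groups here, and with all 16 libraries in the additive fit edgeR called 0 genes of the set for HMBA, for shNELFE and for EPZ-5676. In that order 3, 1 and 1 genes of the set had an unadjusted p under 0.05, beside 1641, 400 and 90 of all 15853 genes tested there.

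**Figure D5:**
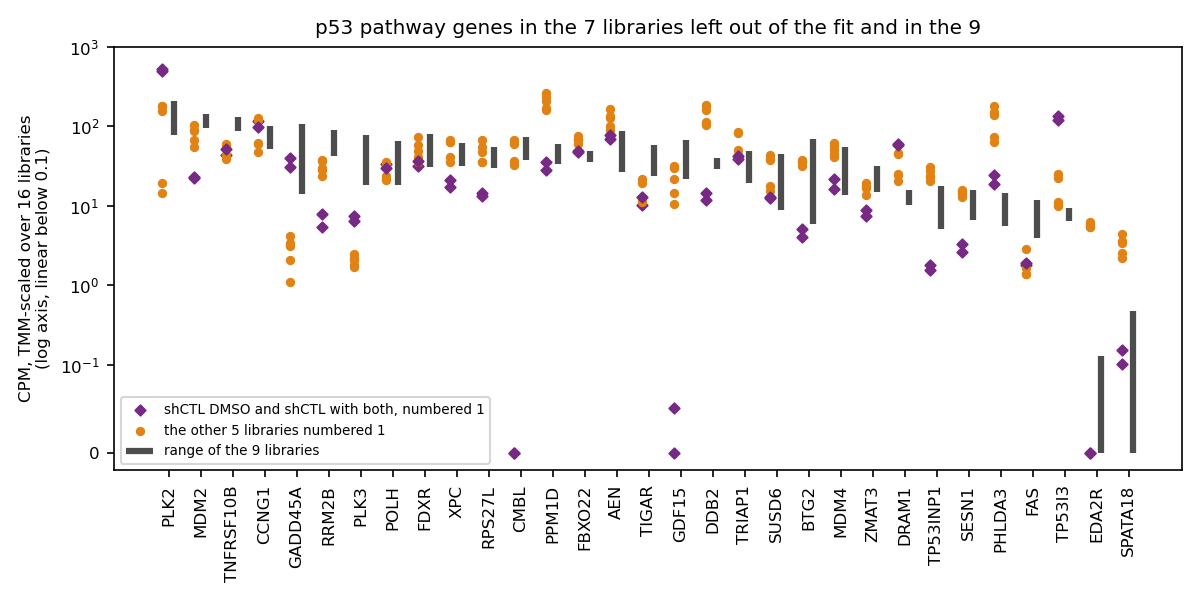
CPM scaled over all 16 libraries (log axis, linear below 0.1) is drawn for the 31 genes, with a point for each of the 7 libraries left out of the fit (diamonds for shCTL with both compounds and with DMSO, circles for the other 5) left of a bar for the range of the 9. PHLDA3, TP53I3 and DRAM1 have all 7 points above the 9, and PLK3, RRM2B, FAS, TNFRSF10B and TIGAR have all 7 below.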

How the data were processed

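Poly(A) RNA of 16 libraries was measured with a stranded mRNA kit, per the labels' protocols. The authors deposited 1 table of raw read counts per gene, used here as deposited. The build was hg38 and the tools edgeR, HTSeq 0.6.1p1, Cufflinks 2.1.1 and STAR 2.4.0b, per the submitters' processing notes, which assign no roles. Annotation release and strand setting: not given in the sources used here. The table has 60676 rows, 0 without a gene identifier, and 58503 have a position in GENCODE 29.

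Libraries were grouped by their titles. The genes, lists, libraries and tests were chosen with earlier results of these data known. Additive terms for HMBA, EPZ-5676 and shRNA were fitted to 9 libraries with edgeR 4.0.16 (quasi-likelihood F-test, TMM, filterByExpr, Benjamini-Hochberg over all genes, R 4.3.3), with 5 residual degrees of freedom. Product terms were added, each alone. Log2 fold changes are given with SE, computed as the fold change over the root of F. Alternatives were RLE scaling, unscaled totals, no filter, DESeq2 1.42.0, limma-voom (limma 3.58.1), the 8 libraries numbered 2, all 16 libraries, a replicate block and leaving out each library. The code was tested on simulated counts.

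Values per library are given for genes called with at least a 2-fold change and for MDM2 and MDM4. CDKN1A, BAX, BBC3, NELFE and HEXIM1 are named whatever their values. From each other list, up to 2 called genes with the largest rise and 2 with the largest fall per effect are named, among genes with at least 2 CPM in the higher arm. Results for 2 genes that this rule names are not reported here. Other values shown in full (PLK2, SUSD6 and GDF15 included) were chosen after they were seen. Total counts set a floor of 3 counts per library, which covers counting error only.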

Additional observations from a re-analysis of the deposited data

Results flagged for a closer look

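EDA2R and SPATA18, too low to test in the 9 libraries of the fit, had counts in the libraries outside it. EDA2R, the ectodysplasin receptor, reached 6.30 CPM there, in shNELFE with EPZ-5676 number 1, against at most 0.134 CPM in the 9. It had 5.44 to 6.30 CPM in 5 of the 7 libraries and 0 in shCTL with both compounds and shCTL with DMSO. SPATA18, a protein of mitochondrial quality control, reached 4.47 CPM in shNELFE with HMBA number 1, against at most 0.482 CPM in the 9, and had 2.20 to 4.47 CPM in the same 5 libraries. Both were noted as a signal in data that the comparisons do not use.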

How the results depend on the processing

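Counts of the set for HMBA stayed within 1.5 times under every alternative on the 9 or 8 libraries, and limma-voom kept the direction and the call of the set's genes and of the other genes named. For the 14 genes named from the other lists, the alternatives were added after the data were seen. With all 16 libraries, with or without the replicate block, edgeR called 0 genes in every list and over all genes for HMBA, shNELFE and EPZ-5676, and 0 for the change of HMBA by shNELFE. Same-numbered libraries deviated together with r of 0.0889 to 0.975 over 28 pairs of groups, of which 27 were over 0.1 and 1, shNELFE with both compounds and shNELFE with HMBA, was below. Numbers were to be taken as pairs only with all of them over 0.1, so they were not. Of the 9 libraries 1 has the number 1, so the block there absorbs that library. On the 9 libraries the replicate block called, for EPZ-5676, 5 genes of the set, 6 other targets and 571 of all genes. For shNELFE it called 20 other targets, 4 cell cycle genes and 1945 of all genes. It called 36 genes for the change of HMBA by shNELFE and 5 for that by EPZ-5676. With only the 8 libraries numbered 2, EPZ-5676 gave 4 genes of the set, 6 other targets and 563 of all genes, shNELFE gave 20 other targets, 3 cell cycle genes and 1940 of all genes, and the changes of HMBA gave 36 by shNELFE and 5 by EPZ-5676. DESeq2 called 1 gene of the set, 3 other targets and 235 of all genes for EPZ-5676, 14 other targets and 919 of all genes for shNELFE, and 23, 1 and 3 genes for the changes of HMBA by shNELFE, HMBA by EPZ-5676 and EPZ-5676 by shNELFE. With no filter on low counts, EPZ-5676 gave 4 other targets and 248 of all genes, shNELFE 11 and 767, and the 3 changes 75, 5 and 4. Unscaled totals gave 0 other targets for EPZ-5676.

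On leaving out each library, HMBA gave 21 to 25 genes of the set, 48 to 62 other targets, 14 to 19 regulators, 12 to 16 cell cycle genes and 8035 to 10443 of all genes. EPZ-5676 gave 0 to 4, with 0 to 6 other targets and 1 to 563 of all genes. shNELFE gave 1 to 4, with 1 to 20 other targets, 0 to 3 cell cycle genes and 66 to 1940 of all genes. The changes of HMBA gave 0 to 36 by shNELFE and 0 to 5 by EPZ-5676. Direction turned for HMBA with all 16 libraries in MDM2 (0.036, or 0.14 with the replicate block), PPM1D (-0.19), DDB2 (-0.55, or -0.33 with the block), TP53I3 (-0.012) and BBC3 (-0.0018), and in FAS with the block (0.046). For shNELFE it turned in PLK2 (-0.44, or -0.30 with the block). With unscaled totals it turned for HMBA in DDB2 (-0.19), TNFRSF10B (-0.21), TP53I3 (-0.085) and CMBL (-0.058). The cause was not tested. At this depth, changes in EDA2R and SPATA18 were not detectable in the 9 libraries.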
